A study of Mus musculus with 10 samples.

Results

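Axon guidance ligands and receptors were followed in the spinal cord of 90-day-old female mice, as 68 genes of 25232 in the authors' deposited table. The members were taken by symbol (semaphorins, plexins, neuropilins, ephrins, Eph receptors, Slit and Robo genes, netrins, *Dcc* and the *Unc5* genes), where the base mean reached 10. The pattern matched 70 symbols, and 68 of them passed this minimum. The series holds 10 RNA-seq libraries on a C57BL/6 background (C57BL/6J in the methods), 5 from SOD1 G93A mice and 5 from wild type (WT) mice, all female and 90 days old. The SOD1 G93A mice carry many copies of a human *SOD1* transgene with a mutation of familial amyotrophic lateral sclerosis, a motor neuron disease, and the WT mice were their littermates. The methods name the lumbar cord, and the labels give the spinal cord with no region. The table holds no values of single libraries, and the base mean is the authors' mean over all 10 libraries of counts divided by size factors, so each level below is that of both genotypes pooled. The difference between SOD1 G93A and WT mice was not tested for these genes, because the only columns that bear on it are the authors' own comparison, which was not used. The spread between mice is not given either, and no order of levels was tested.

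Axon guidance genes encode cues that steer growing axons and the receptors on the growth cone that read them. Semaphorins signal through plexins, with neuropilins as co-receptors for most of the secreted ones. Ephrins are held in the membrane and signal both through Eph receptor tyrosine kinases on the facing cell and back into their own cell. Netrins attract axons through Dcc and repel them through Unc5 receptors, and Slit proteins repel axons from the midline of the cord through Robo receptors. In the adult many of the same genes are still expressed in neurons, glia and vessels, where they act on synapses, myelinating cells and the vessel wall.

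The tissue was checked against marker genes. The posterior Hox genes *Hoxa10*, *Hoxc10* and *Hoxd10* had base means of 235, 489 and 152. The forebrain gene *Emx1* was listed at 0.993, while *Neurod6*, taken as a forebrain marker too, was listed at 78.9. Oligodendrocytes, astrocytes, microglia and inhibitory neurons were each checked by 4 markers, which passed the minimum, as did all 5 of cholinergic motor neurons. Of these 5, *Slc5a7*, *Slc18a3* and *Chat* had base means of 2316, 1170 and 735, while *Isl1* and *Mnx1* had only 45.6 and 37.3. Signal of tissue outside the cord was also present, with *Prx* of Schwann cells at 484 and *Scn10a*, *Trpv1* and *Mrgprd* of sensory neurons at 86.9, 14.9 and 8.80. Its part in the levels of the guidance genes was not tested. In bulk tissue, fewer cells of a type and less RNA per cell cannot be told apart. The base means of all genes summed to 22158933 normalized counts, which is the mean normalized library total, and the depth of single libraries is unknown.

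The 68 genes together held 79746 normalized counts, 0.360% of the mean library total. Their base means ran from 13.0 to 6316, with a median of 665. Because a longer transcript gives more reads, levels were compared between genes only after division by the length of all annotated exons of the gene in kilobases (normalized counts per kb). On this scale the members ran from 5.86 to 1984, a 339-fold range, with a median of 94.0. The median member lay at percentile 44.3 of the 15601 genes that passed the same minimum and had a known length, whose own median was 117 per kb. Of the 68 genes, 12 lay above the upper quartile of those genes (291 per kb) and 11 below the lower quartile (37.6 per kb). The members were long, with a median exon length of 6852 bases against 4329 for all these genes.

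**Figure D1:**
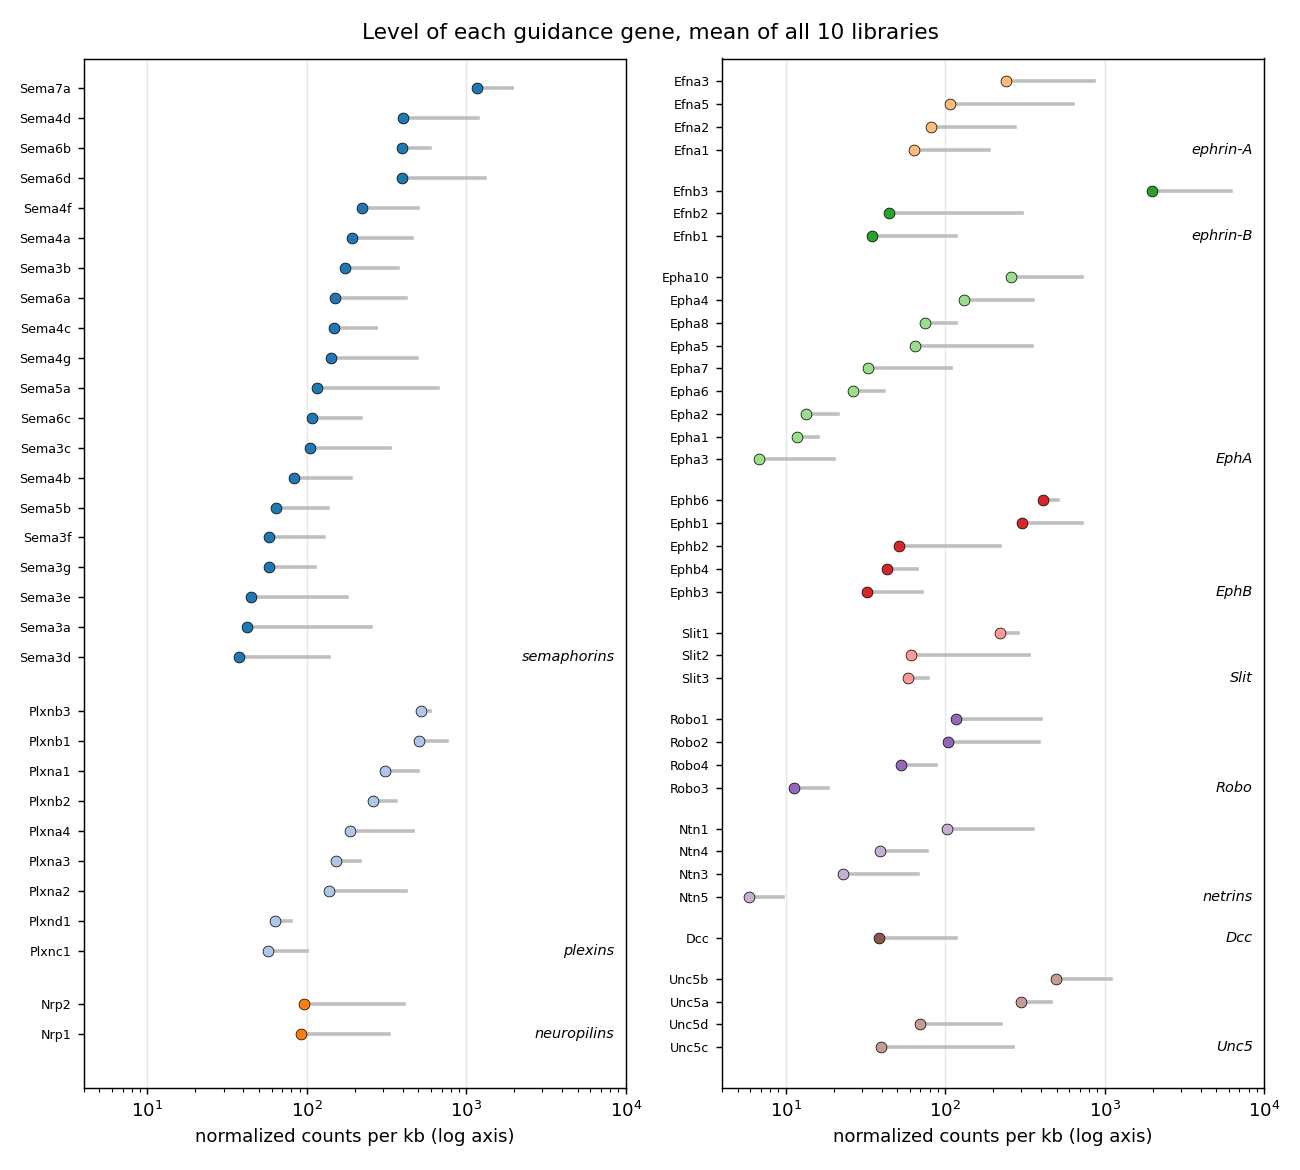
Level of each of the 68 genes in normalized counts per kb on a log axis, as the authors' mean of all 10 libraries. Points use the length of all annotated exons, and grey bars reach over the values with the length of the longest transcript or the coding length. *Efnb3* at 1984 and *Sema7a* at 1171 stand to the right of all other points.

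Ephrins and Eph receptors were the system with the widest range. *Efnb3*, a transmembrane ephrin that acts as a midline barrier for corticospinal axons and is also made by oligodendrocytes, had the highest level of all 68 genes. Its base mean was 6316 and its level 1984 per kb, at percentile 97.6, and it ranked number 1 with each of the 3 lengths tried. The other ephrin-B genes were far lower per kb, with *Efnb2*, a marker of arterial endothelium, at 44.8 and *Efnb1* at 34.9. *Efnb3* therefore made up 96.1% of the summed level per kb of the ephrin-B genes. The ephrin-A genes, whose proteins are held by a lipid anchor, were closer together. *Efna3* had 242 per kb, *Efna5* 108, *Efna2* 81.0 and *Efna1* 63.5. *Efna4* was left out by the minimum, with a base mean of 6.99.

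Among the EphA genes, *Epha10* was the highest at 259 per kb (base mean 1864). It encodes a receptor that lacks kinase activity. *Epha4*, a receptor of motor and corticospinal axons that binds both ephrin classes, had 131 per kb and a base mean of 1058. *Epha8* and *Epha5* followed at 75.3 and 65.0 per kb, and their order turned with the length of the longest transcript and with the coding length. *Epha7* had 33.0 and *Epha6* 26.4. At the low end, *Epha2* had 13.4 per kb, *Epha1* 11.8 and *Epha3* 6.82, which put *Epha3* 38.0-fold under *Epha10*. By coding length *Epha1* was under *Epha3*. Among the EphB genes, *Ephb6* and *Ephb1* stood apart from the others. *Ephb6*, which encodes the other kinase-deficient receptor of the family, had 414 per kb with a base mean of 1561, and *Ephb1* had 303 per kb with a base mean of 2121. *Ephb1* was the higher of the pair with both other lengths and by base mean, so the leading EphB gene depended on the length. *Ephb2* had 51.6 per kb, *Ephb4*, a marker of veins, 43.2 and *Ephb3* 32.3, and the order of *Ephb4* and *Ephb3* turned with the coding length. The receptors without kinase activity held 41.6% of the summed EphA level per kb (*Epha10*) and 49.0% of the summed EphB level per kb (*Ephb6*). The share of *Ephb6* was 32.3% by coding length and 32.9% by base mean.

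The 20 semaphorins held 33.5% of the summed level per kb of all members, the largest share of the 12 families with each of the 3 lengths. With family medians in place of sums, their share was 12.5%, under the plexins at 18.2% and the *Unc5* genes at 17.9%. *Sema7a*, the only semaphorin with a lipid anchor and a ligand of integrins and of plexin C1, was the highest at 1171 per kb (base mean 3861), at percentile 95.2. It ranked number 2 of the 68 genes with each length. The next semaphorins were transmembrane proteins of class 4 and class 6. *Sema4d*, a ligand of B-type plexins found in oligodendrocytes, had 399 per kb (base mean 3065). *Sema6b* had 397.4 and *Sema6d* 396.7 per kb, values that could not be ranked, as *Sema6d* was the higher with both other lengths. Class 6 semaphorins are ligands of A-type plexins. The other class 4 genes ran from 82.9 (*Sema4b*) to 221 (*Sema4f*), with *Sema4a* at 193, *Sema4c* at 148 and *Sema4g* at 142. With the longest transcript *Sema4a* was above *Sema4f*. *Sema4g* was above *Sema4c* with both other lengths, and above *Sema4a* by coding length. *Sema6a* had 149 and *Sema6c* 107 per kb. Of class 5, *Sema5a* had 115 per kb and *Sema5b* 64.5.

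The secreted class 3 semaphorins, the classic repellents read through neuropilins, were lower. Their 7 genes had a median of 57.6 per kb, against 171 for the 6 class 4 genes and 273 for the 4 class 6 genes. *Sema3b* was the highest of class 3 at 175 per kb, followed by *Sema3c* at 105. *Sema3f* had 58.2, *Sema3g* 57.6 and *Sema3e* 44.9. *Sema3a*, a repellent that collapses growth cones and is a component of perineuronal nets, had 42.0 per kb at a base mean of 583. *Sema3d* was the lowest of the 20 semaphorins at 37.5, although by coding length *Sema3g*, *Sema3f* and *Sema5b* were lower. The order of *Sema3e* and *Sema3a* turned with both other lengths. Class 3 held 4.25% of the summed level of all members, less than *Sema7a* alone at 9.56%.

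The receptors of the semaphorins were led by B-type plexins. *Plxnb3*, known from oligodendrocyte lineage cells, had 521 per kb (base mean 3383) and *Plxnb1*, a receptor of *Sema4d*, had 501 per kb (base mean 4808). With the other lengths *Plxnb1* was the higher, so the order of the pair was not settled. *Plxnb2*, also a receptor of class 4 semaphorins, had 259. The A-type plexins, which signal with neuropilins or bind class 6 semaphorins directly, ran from 138 to 311 per kb. *Plxna1* had 311, *Plxna4* 187, *Plxna3* 153 and *Plxna2* 138. The order of *Plxna3* and *Plxna2* turned with both other lengths, and *Plxna2* was also above *Plxna4* with the longest transcript. By coding length *Plxna4* was above *Plxnb2*. *Plxnd1*, a receptor of endothelial cells and some neurons, and *Plxnc1*, the receptor of *Sema7a*, were the lowest plexins with each length, at 63.2 and 56.9 per kb, and *Plxnd1* was the lower by coding length. The highest semaphorin and its plexin were thus far apart, with 1171 for *Sema7a* against 56.9 for *Plxnc1*. *Nrp2* and *Nrp1*, the neuropilin co-receptors, had 96.0 and 92.1 per kb, and their order turned with the length of the longest transcript. The plexins had a median percentile of 63.5, the highest of the families with the exon length, while by coding length the median level of the ephrin-A genes was higher.

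Among the netrin receptors, *Unc5b* was the highest at 494 per kb (base mean 3090, percentile 85.7). *Unc5a* had 299 per kb, *Unc5d* 69.5 and *Unc5c* 39.4, and the order of *Unc5d* and *Unc5c* turned with both other lengths. *Dcc*, the receptor for attraction, had 38.7 per kb at a base mean of 510, under all 4 *Unc5* genes with each length, though by little for *Unc5c* with the exon length used here. Of the ligands, *Ntn1*, the classic netrin of the floor plate, was the highest at 103 per kb with a base mean of 644. *Ntn4*, a netrin of basement membranes, had 38.9 and *Ntn3* 23.0 per kb. *Ntn5* was the lowest of the 68 genes at 5.86 per kb, and 23.4% of its exon length was shared with *Sec1*, so that part of its small count cannot be assigned.

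Of the Slit genes, *Slit1* had 221 per kb, *Slit2* 61.2 and *Slit3* 58.7. By base mean *Slit2* was the higher, at 1556 against 1307 for *Slit1*, and so it was by coding length. Its annotated exons sum to 25433 bases, the longest of the members. *Robo1* and *Robo2*, the main Slit receptors of neurons, were close to each other at 117 and 104 per kb, and lie within 846 kb of each other on chromosome 16. *Robo4*, a receptor of endothelial cells, had 53.2 per kb, where the endothelial markers *Cldn5*, *Pecam1* and *Flt1* had 501, 101 and 167. *Robo3*, a receptor of commissural axons before they cross the midline, had only 11.3 per kb (base mean 77.5).

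The summed levels of ligands and receptors were then set side by side. The netrin receptors among the members (5 genes, *Dcc* and the *Unc5* genes) summed to 940 per kb and netrins (4 genes) to 170. *Neo1* and *Dscam*, which also bind netrins, were not members and are not in this sum. The ratio of 5.52 stayed between 4.24 and 6.79 with the other lengths and by base mean, and was 2.62 without *Unc5b*. The semaphorin system ran the other way, with 2379 per kb for 11 receptors against 4106 for 20 ligands, a ratio of 0.579. Eph receptors summed to 1466 and ephrins to 2558 per kb, a ratio of 0.573. That direction rested on *Efnb3*, because the ratio without it was 2.55. For Slit and Robo genes the ratio was 0.840, and it was above 1 with both other lengths, so no direction can be given. Where the receptors and the ligands are made in different cells, such sums say nothing of the amounts at a given contact.

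**Figure D2:**
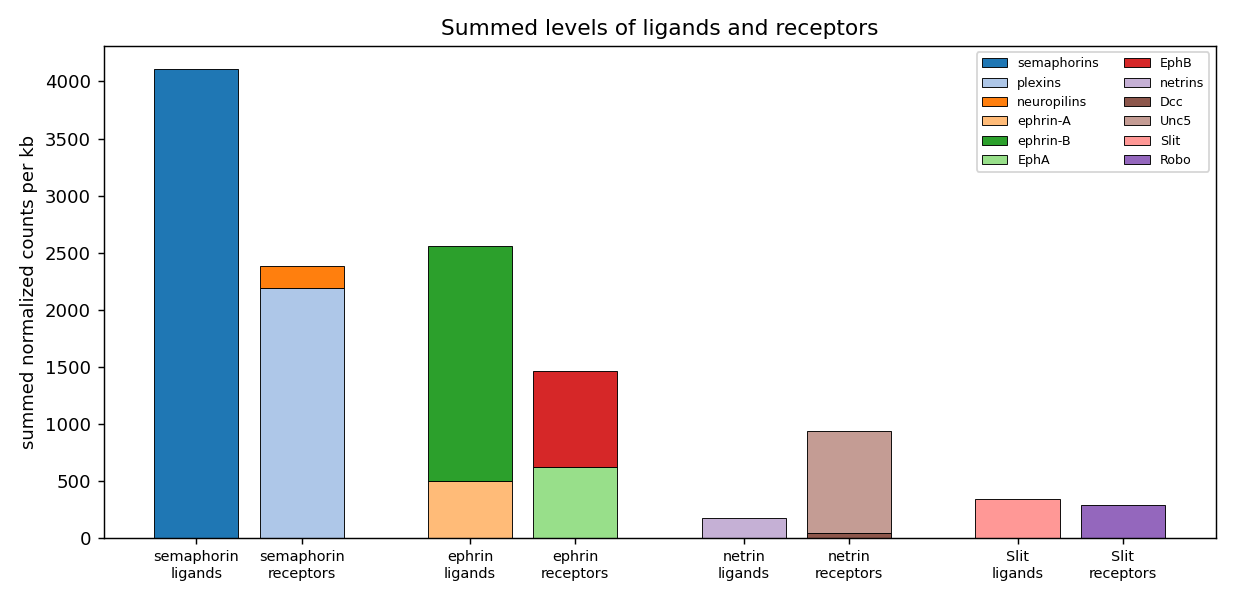
Summed normalized counts per kb of the ligands and the receptors of each system, stacked by family, on a linear axis from 0. Semaphorins sum to 4106 and netrins to 170, and the ephrin bar is mostly ephrin-B.

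**Figure D3:**
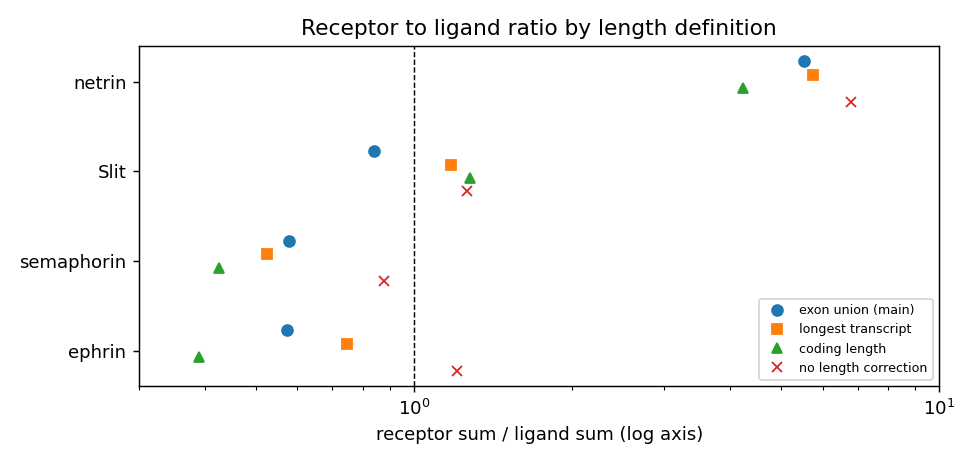
Ratio of the summed receptor level to the summed ligand level in each system on a log axis, with a dashed line at 1. Circles use all annotated exons, squares the longest transcript, triangles the coding length and crosses no length. Netrin ratios lie between 4.24 and 6.79, semaphorin ratios stay under 1, and the Slit and ephrin ratios lie on both sides of 1.

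Several members lie within 1 Mb of each other on a chromosome, and some of these pairs had unequal levels. Coordinates are of GRCm38, the build that mm10 denotes. *Robo3* and *Robo4* are 0.554 kb apart on chromosome 9, and the level per kb of *Robo4* was 4.69-fold that of *Robo3* (3.67-fold with the longest transcript and 4.74-fold by coding length). *Sema3b* and *Sema3f*, 72.3 kb apart on chromosome 9, differed 3.00-fold. *Efna3* and *Efna1*, 32.8 kb apart on chromosome 3, differed 3.81-fold, with 14.1% of the exon length of *Efna3* shared with another annotated gene. *Ephb6* and *Epha1* lie 738 kb apart on chromosome 6 and differed 34.98-fold. Of the 11 pairs of members within 1 Mb, *Sema3e* and *Sema3a* (1.07-fold, order turned by both other lengths), *Sema3a* and *Sema3d* (1.12-fold) and *Robo1* and *Robo2* (1.12-fold) were the closest in level with the exon length. *Sema3a* and *Sema3d* differed 1.92-fold with the longest transcript and 1.82-fold by coding length, and *Robo1* and *Robo2* 1.24-fold and 1.02-fold.

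Other genes of the pathway were measured from a list of 43, and all 43 passed the minimum. Their median level was 272 per kb, at median percentile 73.4, where the guidance members had 94.0 and 44.3. The 27 cytoplasmic effectors ran from 58.1 per kb for *Mical1*, an oxidase of actin downstream of plexins, to 4756 for *Cfl1*, the actin severing protein cofilin. *Dpysl2*, which relays semaphorin signals to microtubules, had 932 and *Srgap3*, a Robo partner, had 864 per kb. Among co-receptors and adhesion partners, *Cntn2* was the highest at 1303 and *Dscam*, a netrin receptor, the lowest at 185. *Neo1*, a relative of *Dcc* that binds netrins and repulsive guidance molecules, had 368 per kb, above *Dcc* at 38.7. The 8 other guidance ligands had a median percentile of 41.5, with *Rgma* the highest at 277 and *Draxin* the lowest at 6.91 per kb. The netrin-G ligand genes *Lrrc4c* and *Lrrc4* had 273 and 272. These lists differ in what they hold, and no difference between them was tested.

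**Figure D4:**
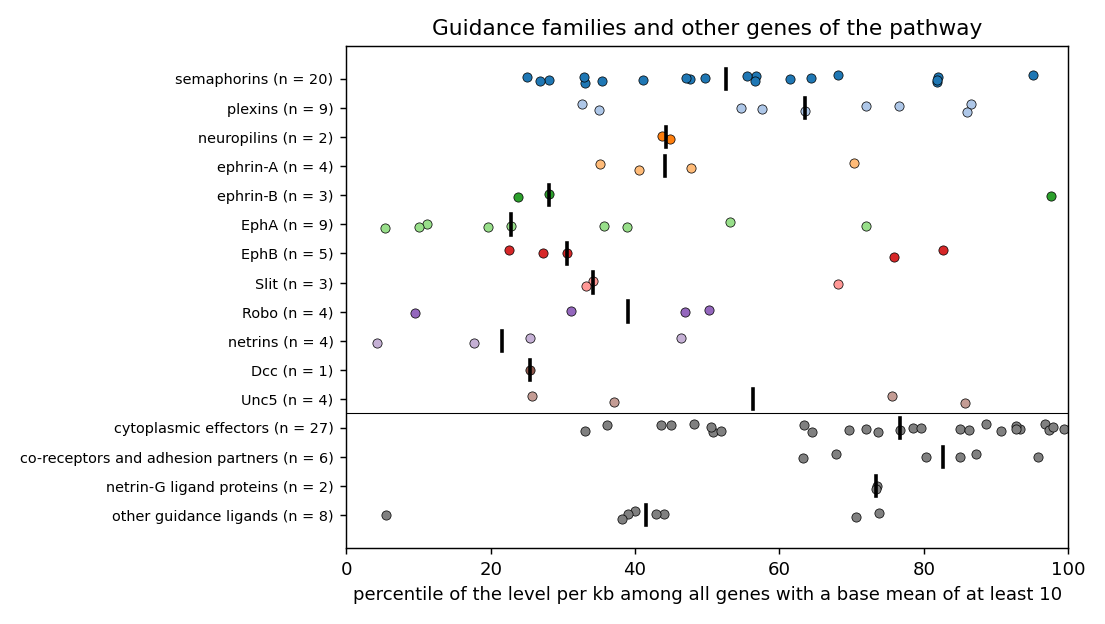
Percentile of each gene's level per kb among the 15601 genes that passed the minimum and had a known length, by family (above the line) and by group of other pathway genes (below it). Points are genes, spread vertically only for legibility, and black bars are medians. The plexin median is 63.5, the EphA median 22.9 and that of the cytoplasmic effectors 76.7.

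Promoters were read from RefSeq for GRCm38.p6, as 250 bases before to 50 after the start of a gene. A window within 1000 bases of the annotated start was found for 54 of the 68 genes. Their CpG dinucleotides, which mark promoters of broadly expressed and developmental genes, numbered from 2 to 56 with a median of 23, against a median of 20 over 11187 genes. Members with fewer than 20 CpGs (23 genes) had a median level of 53.2 per kb and the other 31 one of 82.9, where all genes had 84.3 and 156. The motif TATAAA was found on either strand in 2 of the 54 windows (3.70%, against 7.09% of all windows), those of *Slit2* and *Efnb2*. The windows with the fewest and the most CpGs are shown with that of *Sema7a*, the highest of the members with a window. Capitals mark CpG.

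*Robo4* (chr9:37401722-37402021, plus strand, 2 CpGs): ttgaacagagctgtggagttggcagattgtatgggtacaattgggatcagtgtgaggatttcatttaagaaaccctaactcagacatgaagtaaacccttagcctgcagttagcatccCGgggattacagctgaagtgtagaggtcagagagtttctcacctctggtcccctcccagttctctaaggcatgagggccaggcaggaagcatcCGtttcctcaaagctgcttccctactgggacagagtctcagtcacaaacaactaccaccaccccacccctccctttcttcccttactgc

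*Epha8* (chr4:136956767-136957066, minus strand, 56 CpGs): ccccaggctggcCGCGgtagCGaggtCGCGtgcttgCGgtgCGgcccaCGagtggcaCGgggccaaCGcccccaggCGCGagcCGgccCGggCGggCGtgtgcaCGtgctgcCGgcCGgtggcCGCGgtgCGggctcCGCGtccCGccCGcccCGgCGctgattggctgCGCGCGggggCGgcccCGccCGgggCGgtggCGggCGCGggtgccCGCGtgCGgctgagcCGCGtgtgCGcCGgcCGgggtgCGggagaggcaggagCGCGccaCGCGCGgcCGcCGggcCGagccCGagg

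*Sema7a* (chr9:57939862-57940161, plus strand, 23 CpGs): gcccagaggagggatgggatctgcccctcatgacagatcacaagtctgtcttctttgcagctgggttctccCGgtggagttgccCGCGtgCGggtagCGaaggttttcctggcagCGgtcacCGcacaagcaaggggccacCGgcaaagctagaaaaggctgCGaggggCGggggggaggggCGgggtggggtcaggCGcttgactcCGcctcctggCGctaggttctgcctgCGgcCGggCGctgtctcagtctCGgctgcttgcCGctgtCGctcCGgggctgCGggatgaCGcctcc

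*Robo4*, with 2 CpGs, had 53.2 per kb and *Epha8*, with 56, had 75.3. Both windows were picked for their number of CpGs and do not describe the members as a set. *Sema7a*, at the members' median number of CpGs, had 1171.

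The minimum left out *Efna4*, with a base mean of 6.99, and *Plxna4os1*, an antisense transcript at the *Plxna4* gene, with 6.98. The members just inside were *Ntn5* at 13.0, *Epha1* at 46.5 and *Epha3* at 59.3. Exons of 17 members were shared with another annotated gene on either strand, over 10% of the exon length in 3 of them (*Ntn5*, *Efna3* and *Plxna1*). The strand setting of the counting is not given in the sources used here, so it is unknown to which gene, if any, reads of shared exons were counted. Among the 56 pairs of neighbours in the order within families, 37 kept their order with all 3 lengths.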

How the data were processed

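Libraries were made with a stranded mRNA kit and read as pairs. Per the methods and the submitters' processing notes, the authors filtered reads with Fastp, aligned them to mm10 with HISAT2 2.1.0, counted reads per gene with featureCounts 2.0.2, keeping uniquely mapped reads, and compared the genotypes with DESeq2. The gene annotation and the strand setting are not given in the sources used here. The deposited base mean is a signal that the authors computed as the mean over 10 libraries of counts divided by size factors. The other deposited columns are the authors' own comparison (log2 fold change, standard error, Wald statistic, p-value and adjusted p-value) and were not used. Levels per kb were computed here from GENCODE M21 (GRCm38) exons, matched by symbol for 96.4% of the 25232 genes and for all 68 members. The authors' annotation may differ, which changes a level by the ratio of the lengths. Genotypes were taken from the labels and entered no test. The alternatives were the longest transcript, the coding length, no length, family medians in place of sums, other minimums, and leaving out the leading gene. The last was chosen after the data were seen. Members and lists were chosen with earlier results of these data known. The rule for named genes took the 3 highest and 2 lowest of each family, those nearest the minimum and the highest and lowest of each group of other pathway genes. The other members, and *Dpysl2*, *Srgap3* and *Neo1*, were named after their values were seen. A comparison of proteins that was planned could not be run without protein sequences. Scripts were tested on simulated data, with Python 3.11.15, numpy 2.4.6 and pandas 2.3.3. Some of the marker genes checked are not reported here.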

Additional observations from a re-analysis of the deposited data

How the results depend on the processing

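No paired analysis was possible because the table holds 1 mean over all libraries, and leaving out each replicate could not be run for the same reason. The number of members was 70 with a minimum of 5 and 63 with a minimum of 100, against 68. The median percentile of the members was 45.0 with the longest transcript, 43.2 with the coding length, 56.5 by base mean and 57.3 among all genes with a base mean above 0. The ratio of receptors to ligands was 5.75, 4.24 and 6.79 for netrins, 0.525, 0.427 and 0.877 for semaphorins, 0.746, 0.390 and 1.21 for ephrins and 1.18, 1.28 and 1.26 for Slit genes with the longest transcript, the coding length and no length, so that the ephrin ratio crossed 1 by base mean and the Slit ratio with all 3. Without the minimum the ratio was 0.572 for ephrins and 0.580 for semaphorins, where the antisense transcript *Plxna4os1* was counted among the receptors. Leaving out the leading gene gave 2.55 for ephrins (*Efnb3*), 0.810 for semaphorins (*Sema7a*), 2.62 for netrins (*Unc5b*) and 2.39 for Slit genes (*Slit1*). The share of a family in the summed level moved by over 1.5 times for 2 of 12 families with the longest transcript, 3 with the coding length and 5 with no length. With family medians in place of sums, it moved by over 1.5 times for 10 of 12 families, and by up to 11.9-fold (*Dcc*). The leading member stayed the same in 8 of 11 families with the longest transcript, 8 with the coding length and 7 by base mean. Depth per library is unknown, and the pooled mean limits every value to a description.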
